A study of Homo sapiens with 12 samples.

Results

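The 33 genes described here encode the protein-folding machinery of the endoplasmic reticulum (ER) and the unfolded protein response that regulates it. They were taken from a count table of 57730 genes by a list of gene symbols, which was drawn up with earlier results of these data known. By role they comprise 11 chaperones and co-chaperones, 7 enzymes of disulfide formation, 9 genes of ER-associated degradation, 3 stress sensors with the transcription factor gene XBP1, and 2 subunits of the translocon. All 33 symbols were found, with ERO1A and ERO1B listed under their older symbols ERO1L and ERO1LB. After a filter on low counts 14706 genes were tested, among them 32 of the 33. DERL3, one of the degradation genes, did not pass, with 0 to 13 counts in a library, and 77% of its annotated exon length overlaps SMARCB1 on the opposite strand.

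The RNA came from LM3 cells, which were selected for metastasis to the lung from MDA-MB-231, the human triple-negative breast cancer line that the sample labels name. Polyadenylated RNA was sequenced in 12 libraries, 3 in each of 4 groups. The shControl cells carried a control hairpin and were not treated. The shACSL5 cells carried a hairpin against ACSL5, a long-chain acyl-CoA synthetase that activates fatty acids. The shControl+PA and shACSL5+PA groups, written shControl_PA and shACSL5_PA from here on, were the same kinds of cells given palmitic acid, a saturated fatty acid. All groups were cultured with fetal bovine serum, a source of fatty acids that the untreated groups also received. The labels name 1 hairpin against ACSL5, so an off-target effect of the hairpin and the loss of ACSL5 cannot be told apart. For palmitic acid, the sources used here give no dose, time or vehicle, so fatty acid and vehicle cannot be told apart. Whether replicates came from separate cultures is not stated, and the p-values speak only to the spread between these 12 libraries, which may be technical.

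Library totals ran from 16788694 to 21814751 counts. ACSL5 averaged 143 CPM (counts scaled to library size) in shControl and 11.2 CPM in shACSL5, and 191 and 15.3 CPM in the corresponding palmitate groups, as the labels state. All 8 markers fixed for MDA-MB-231 cells were present, at 85.5 CPM or more in every library. Of 8 luminal breast markers the estrogen and progesterone receptor genes ESR1 and PGR stood at 0.439 CPM or less in every library and GATA3 and FOXA1 at 4.89 to 9.44 CPM, while KRT8 (187 to 309 CPM), KRT18 (165 to 224), ERBB2 (54.5 to 83.0) and KRT19 (19.4 to 60.2) were present. Of 6 immune markers 2 were at 0 in all libraries, and the 6 together reached at most 0.870 CPM. The 4 endothelial markers in the table together reached at most 5.87 CPM. Of 6 lung epithelial markers 4 were at 0 throughout, while NKX2-1 stood at 25.7 to 44.7 CPM.

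The ER folds and quality-checks proteins bound for secretion and for membranes. When unfolded proteins accumulate, the membrane sensors IRE1 (encoded by ERN1), PERK (EIF2AK3) and ATF6 are activated. IRE1 and PERK also respond when the saturation of ER membrane lipids rises. IRE1 splices XBP1 mRNA, PERK slows translation, and the cleaved form of ATF6 and the protein made from spliced XBP1 switch on genes for chaperones and for degradation. Palmitic acid is widely used in cultured cells to provoke this response, which is also active in many breast tumours. The counts do not distinguish spliced from unspliced XBP1 mRNA, nor do they measure sensor activation.

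The elements through which ATF6 and XBP1 are known to act were looked up in the promoters, since they define the best-known shared control of these genes. RefSeq promoter windows (GRCh38.p14, 250 bases before to 50 after each transcript start) were at hand for 30 of the 33 genes and for 27305 genes in all. The ER stress response element (ERSE: CCAAT, 9 bases, CCACG) was matched exactly, on either strand, in 8 of the 30 genes (26.7%) and in 0.0916% of all genes with a window. These 8 were CALR, CANX, CRELD2, ERO1B, HSP90B1, HSPA5, PDIA6 and XBP1. They made up 8 of the 25 genes with such a match. The shorter ERSE-II (ATTGG, 1 base, CCACG) was matched in HERPUD1, SDF2L1 and, at 2 sites, HYOU1 (10% of the 30 genes and 0.0696% of all). The core of the unfolded protein response element (UPRE, TGACGTGG) was found in DNAJC10 and in HYOU1, where it overlaps an ERSE-II match (6.67% of the 30 genes and 0.927% of all). With at most 1 of the 10 fixed ERSE letters changed, the matches were 14 of 30 genes (46.7%) and 1.89% of all genes. A match describes letters in a window, and binding was not measured. The elements were picked as the known shared control of these genes, so their higher shares in the set are no test of the set.

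The sites are printed for the genes on which the results turn. Each is written 5′ to 3′ in the direction of the motif, with the fixed letters of the motif in capitals. The HSPA5 stretch lies at chr9:125241386-125241414 on the minus strand and the HERPUD1 stretch at chr16:56932020-56932040 on the plus strand. The SDF2L1 site is at chr22:21642114-21642124 (minus), the XBP1 site at chr22:28800603-28800621 (minus), the CANX site at chr5:179698778-179698796 (plus) and the CALR site at chr19:12938384-12938402 (minus). The HSP90B1 sites are at chr12:103930216-103930234 (plus) and chr12:103930321-103930339 (minus). The CANX and HSP90B1 sites lie inside the span of longer transcripts annotated by GENCODE 29. The HSP90B1 sites lie upstream of the RefSeq start used here. CANX has several RefSeq starts, and its site lies upstream of some, across another and downstream of another.
HSPA5: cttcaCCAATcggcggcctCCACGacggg
XBP1: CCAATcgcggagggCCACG
CANX: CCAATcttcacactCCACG
CALR: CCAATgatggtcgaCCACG
HSP90B1, first site: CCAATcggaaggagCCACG
HSP90B1, second site: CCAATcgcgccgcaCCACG
HERPUD1: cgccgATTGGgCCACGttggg
SDF2L1: ATTGGtCCACG
The letters between the fixed parts differed in every ERSE printed, while the arms were the same by the construction of the search.

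**Figure D1:**
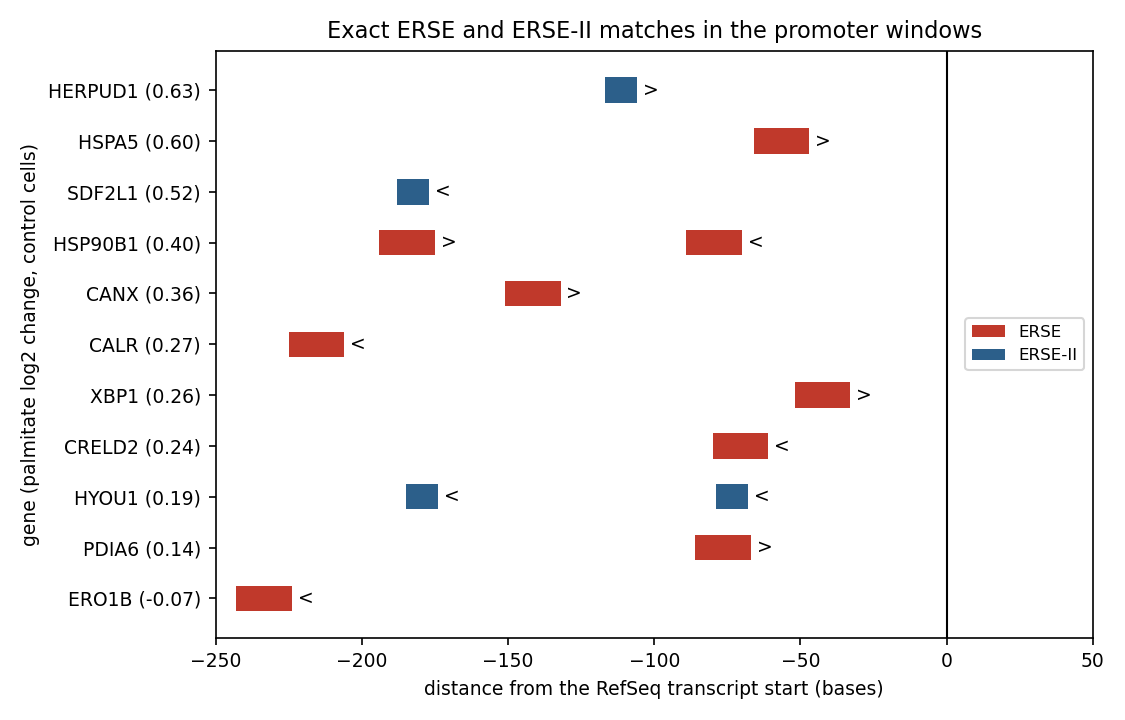
Exact ERSE (red) and ERSE-II (blue) matches in the promoter windows of the 11 genes that hold one, plotted by distance from the RefSeq transcript start in bases. Genes are ordered by their log2 change with palmitate in control cells (in brackets), and > or < marks a motif on the gene's own or the opposite strand. Where a gene has several RefSeq starts a single start is plotted, and all 13 matches lie upstream of the start plotted. The CANX and PDIA6 matches lie across or downstream of other starts of these genes.

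Per kilobase of annotated exon, 4 of the 11 chaperones were the most abundant genes of the set. In untreated control cells CALR stood at 299 CPM per kb, CANX at 243, HSPA5 at 239 and HSP90B1 at 181, and among the disulfide enzymes P4HB stood at 119 and PDIA6 at 109. The sensors were far lower, with ATF6 at 13.7, EIF2AK3 at 4.53 and ERN1 at 2.47 CPM per kb, while XBP1 stood at 50.3. ERO1B (3.86) and, among the chaperones, CRELD2 (4.59), DNAJB9 (9.01) and DNAJB11 (9.54) were low as well. Levels per kilobase use merged annotated exons, including those of isoforms that may not be expressed, so they are approximate.

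Summed over all 33 genes, these transcripts took 0.830% to 0.834% of all counts in the shControl libraries and 0.805% to 0.816% in shACSL5. With palmitate the sums were 1.01% in each of the 3 shControl_PA libraries and 0.896% to 0.899% in shACSL5_PA. No library of one group overlapped with a library of another. The 11 chaperones made up most of each sum, with 0.479% ± 0.00153 in shControl, 0.607% ± 0.000871 in shControl_PA, 0.458% ± 0.00599 in shACSL5 and 0.520% ± 0.00355 in shACSL5_PA (SD, n = 3). In bulk RNA, fewer cells of a kind and less RNA per cell cannot be told apart.

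**Figure D2:**
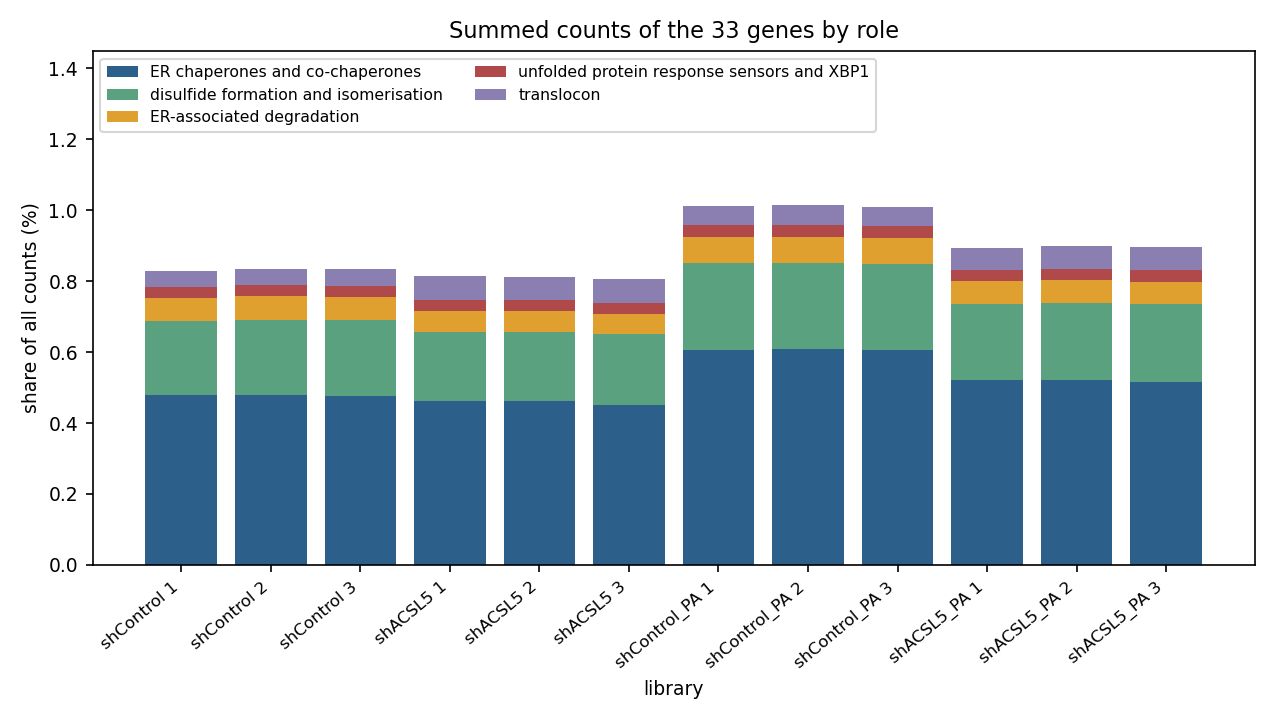
Summed counts of the 33 genes as a percentage of all counts in each of the 12 libraries, stacked by role. The 3 shControl_PA libraries reach 1.01%, the shACSL5_PA libraries 0.896% to 0.899%, and the untreated libraries 0.805% to 0.834%.

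In control cells, palmitate raised most of the set: 23 of 32 tested genes rose, led by HERPUD1 (1.55-fold), HSPA5 (1.52-fold) and SDF2L1 (1.43-fold). Of all 14706 tested genes 28.7% were called in this comparison, and 15.1% (2227 genes) were called higher. The median log2 change of the set was 0.24 and that of all tested genes 0.00. The rises were small in size, and in 27 of 32 genes the libraries of the groups did not overlap, against 41.9% of all tested genes. None of the 32 fell by edgeR's test, by DESeq2 or by limma-voom, and none was lower at an unadjusted p under 0.05 (13.5% of all tested genes fell by edgeR). By role, 10 of 11 chaperones, 6 of 7 disulfide enzymes, 5 of 8 tested degradation genes, XBP1 and 1 of 2 translocon subunits rose, and none of the 3 sensors did. Marker sums moved in the same comparison: the 8 luminal breast markers summed to 648 to 690 CPM in shControl and 568 to 588 CPM in shControl_PA, and the 8 MDA-MB-231 markers to 9157 to 9377 and 8620 to 8774 CPM. Among the MDA-MB-231 markers VIM (3952 to 3557 CPM), CAV1 (528 to 418) and AXL (674 to 592) were lower by group mean. PLAUR (90.4 to 116) was higher, and ITGB1 (1264 to 1291), MSN (1748 to 1721), EGFR (661 to 650) and CD44 (374 to 366) changed little. The part of these markers in the result was not tested.

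HSPA5, which encodes BiP, the ER's main Hsp70-type chaperone and the protein that holds the sensors inactive, stood at 920, 942 and 937 CPM in shControl and at 1439, 1409 and 1393 CPM in shControl_PA. In knockdown cells it stood at 887, 874 and 889 CPM without and at 1107, 1111 and 1112 CPM with palmitate. The 4 groups did not overlap, with shACSL5 lowest and shControl_PA highest. Palmitate raised HSPA5 by 0.60 on the log2 scale in control cells (SE 0.02, adjusted p = 4.38e-15) and by 0.33 in knockdown cells (SE 0.02, adjusted p = 2.74e-10). About 9.54% of the 50-base windows of its exons are shared with other genes, chiefly the pseudogene AL354702.1, so part of its count is uncertain.

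HSP90B1 encodes GRP94, the ER member of the Hsp90 family. It stood at 868, 842 and 833 CPM in shControl, 613, 618 and 564 in shACSL5, 1110, 1124 and 1119 in shControl_PA and 837, 855 and 820 in shACSL5_PA. The knockdown libraries with palmitate lay within the range of the untreated control libraries, apart from 1 library just below it. The rises with palmitate were 0.40 in control cells (SE 0.03, adjusted p = 1.10e-09) and 0.48 in knockdown cells (SE 0.03, adjusted p = 8.21e-11). The promoter window of HSP90B1 was the only one of the set with 2 exact ERSE matches.

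The membrane lectin chaperone CANX (calnexin) stood at 1523, 1523 and 1495 CPM in shControl, 1672, 1707 and 1632 in shACSL5, 1918, 1949 and 1966 in shControl_PA and 1733, 1745 and 1698 in shACSL5_PA. The knockdown groups overlapped each other, while the control groups were clearly apart. CANX rose by 0.36 in control cells (SE 0.02, adjusted p = 2.50e-11), and its change in knockdown cells was 0.05 (SE 0.02, adjusted p = 0.127). Its soluble relative CALR (calreticulin) stood at 800, 809 and 826 CPM in shControl, 839, 805 and 831 in shACSL5, 972, 975 and 981 in shControl_PA and 955, 935 and 956 in shACSL5_PA. Every treated library of CALR lay above every untreated one. CALR rose by 0.27 in control cells (SE 0.02, adjusted p = 2.02e-08) and by 0.20 in knockdown cells (SE 0.02, adjusted p = 2.15e-06).

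Several co-chaperones work with BiP. SDF2L1, a partner of the J-domain protein made from DNAJB11, stood at 21.4, 23.5 and 25.2 CPM in shControl, 27.2, 27.9 and 27.8 in shACSL5, 36.6, 31.6 and 32.2 in shControl_PA and 29.2, 30.0 and 29.9 in shACSL5_PA. Its groups did not overlap, but the knockdown groups were close together. It rose by 0.52 in control cells (SE 0.07, adjusted p = 1.27e-05), and its change in knockdown cells was 0.10 (SE 0.07, adjusted p = 0.337). DNAJB9, a BiP co-chaperone that also represses IRE1, stood at 28.6, 21.8 and 26.3 CPM in shControl, 24.2, 21.8 and 21.5 in shACSL5, 28.8, 33.7 and 33.9 in shControl_PA and 20.6, 23.6 and 21.4 in shACSL5_PA. The highest untreated control library lay just below the lowest treated one, and the knockdown groups overlapped. DNAJB9 rose by 0.33 in control cells (SE 0.09, adjusted p = 0.00892) and stood at -0.04 in knockdown cells (SE 0.09). Leaving out shControl replicate 2 ended the call in control cells (0.23, adjusted p = 0.0773).

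**Figure D3:**
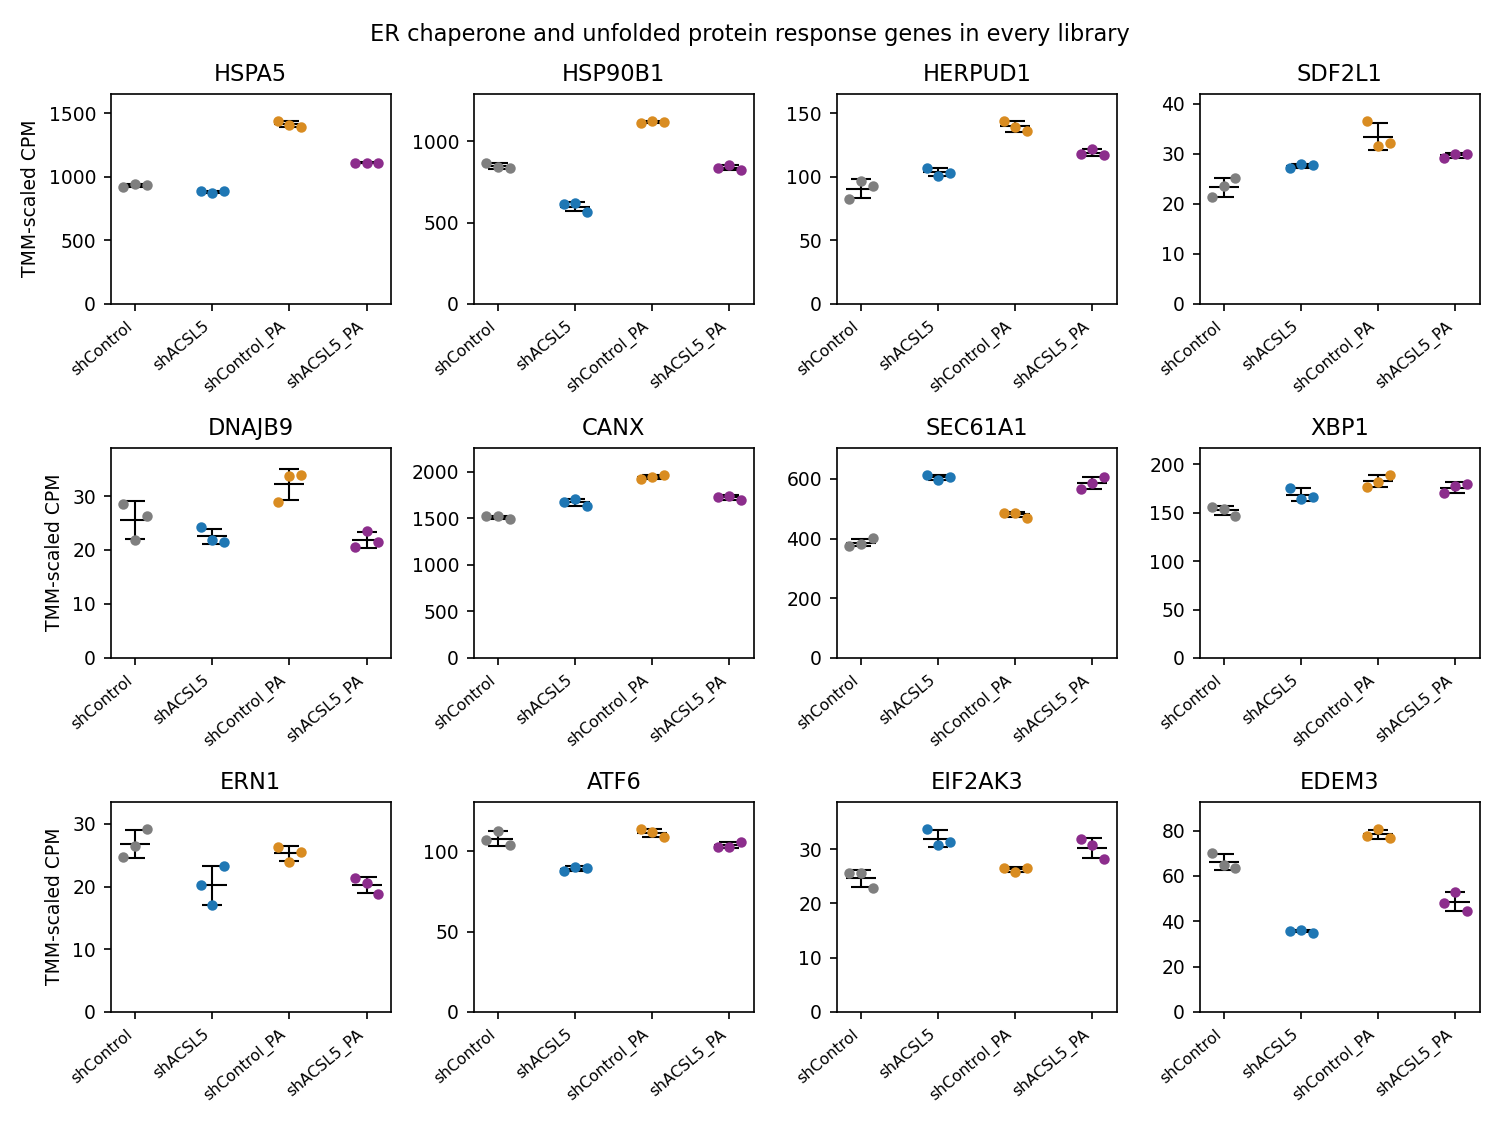
TMM-scaled CPM of 12 genes in every library (points), with the mean and SD of the 3 libraries of each group (black lines), each axis starting at 0. HSPA5 runs from 874 to 1439 CPM and is highest in shControl_PA, SEC61A1 is highest in the knockdown groups, and ERN1 stays at 29.2 CPM or below.

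DNAJB11 itself rose by 0.37 in control cells (SE 0.05) and stood at 0.02 in knockdown cells (SE 0.05). Of its 50-base windows 7.1% are shared with other genes, AC068631.2 most, so part of its count is uncertain. On the opposite strand AC068631.1 overlaps 8.65% of its exon length. MANF, a secreted ER protein that binds BiP, rose in both (0.34 and 0.27, SE 0.05 each). HYOU1, the nucleotide exchange factor of BiP, rose by 0.19 in control and 0.10 in knockdown cells. CRELD2, an ER-resident factor released under stress, rose by 0.24 in control cells. In knockdown cells it was not called, at 0.12 to 0.19 over alternative choices of scaling, filter, method or libraries. DNAJC3, a co-chaperone that restrains PERK, rose by 0.17 in knockdown cells. In control cells it was not called, at 0.06 to 0.13 over the same choices. The difference between the responses of the 2 kinds of cells was called for neither gene. Among disulfide enzymes, P4HB (protein disulfide isomerase itself) rose by 0.39 in control cells (SE 0.03) and by 0.13 in knockdown cells (SE 0.03). Its oxidase ERO1A rose by 0.24 and 0.15, and the isomerases PDIA3, PDIA4 and PDIA6 rose by 0.13 to 0.22 in control and by 0.10 to 0.21 in knockdown cells. DNAJC10, a disulfide reductase that clears misfolded proteins, rose by 0.24 and 0.25, with 234, 213 and 212 CPM in shControl, 254, 263 and 260 in shControl_PA, 150, 152 and 140 in shACSL5 and 177, 178 and 169 in shACSL5_PA. ERO1B, the second oxidase, stood at -0.07 (SE 0.10) and 0.30 (SE 0.11, adjusted p = 0.0550) and was called in neither. About 15.3% of the 50-base windows of PDIA3 are shared with other genes, with its copy PDIA3P1 sharing most. On the opposite strand PDIA3 overlaps ELL3 (14.8% of exon length) and PDIA6 overlaps ATP6V1C2 (25.2%). Reads of these genes may be mixed.

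Degradation of misfolded ER proteins requires a ubiquitin ligase, SYVN1 (HRD1), its adaptor SEL1L, the scaffold protein HERPUD1, membrane proteins of the derlin family, and the EDEM proteins, which recognise and trim glycans on clients. HERPUD1 stood at 82.2, 96.7 and 92.6 CPM in shControl, 107, 101 and 103 in shACSL5, 144, 139 and 136 in shControl_PA and 118, 122 and 117 in shACSL5_PA. Its groups did not overlap, and the control cells spanned the wider range. It rose by 0.63 in control cells (SE 0.05, adjusted p = 2.07e-09), the largest change of the set, and by 0.20 in knockdown cells (SE 0.05, adjusted p = 0.00393). EDEM3 stood at 70.0, 64.6 and 63.6 CPM in shControl and 77.4, 80.7 and 76.7 in shControl_PA, and at 35.8, 36.2 and 35.0 in shACSL5 and 48.1, 52.9 and 44.7 in shACSL5_PA. No treated library overlapped with its untreated group. It rose by 0.24 in control cells (SE 0.06, adjusted p = 0.00195) and by 0.45 in knockdown cells (SE 0.06, adjusted p = 1.53e-05).

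SYVN1 rose by 0.29 and 0.24 in the 2 kinds of cells and EDEM1 by 0.13 and 0.16. About 7.24% of the exon length of SYVN1 overlaps FAU on the same strand. Of its 50-base windows 5.97% are shared with other genes, FAU most, so part of its count is uncertain. SEL1L stood at 72.0, 73.2 and 75.5 CPM in shControl and 79.7, 81.1 and 75.8 in shControl_PA, a change of 0.10 that was not called (SE 0.05, adjusted p = 0.168). In knockdown cells it rose by 0.17 (SE 0.06, adjusted p = 0.0364) from 44.5, 46.0 and 39.8 to 50.2, 49.4 and 46.7 CPM. DERL2 rose by 0.17 in control cells and stood at 0.16 in knockdown cells (adjusted p = 0.0538). DERL1 stood at 0.09 in each, and EDEM2 at 0.05 and 0.06.

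XBP1 encodes the transcription factor downstream of IRE1. It stood at 156, 154 and 147 CPM in shControl, 176, 164 and 166 in shACSL5, 177, 182 and 189 in shControl_PA and 170, 178 and 180 in shACSL5_PA. The shControl libraries lay below all others. XBP1 rose by 0.26 in control cells (SE 0.04, adjusted p = 2.46e-05), and its change in knockdown cells was 0.06 (SE 0.04, adjusted p = 0.287). ATF6 stood at 107, 113 and 104 CPM in shControl, 87.8, 90.6 and 89.4 in shACSL5, 114, 112 and 109 in shControl_PA and 103, 103 and 106 in shACSL5_PA. The untreated knockdown libraries lay below all others, and the other 3 groups lay within 103 to 114 CPM. ATF6 rose by 0.22 in knockdown cells (SE 0.04, adjusted p = 0.000563), and its change in control cells was 0.05 (SE 0.04, adjusted p = 0.429).

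ERN1 stood at 24.8, 26.5 and 29.2 CPM in shControl, 20.2, 17.1 and 23.3 in shACSL5, 26.3, 24.0 and 25.6 in shControl_PA and 21.3, 20.6 and 18.8 in shACSL5_PA. The treated and untreated libraries overlapped in both kinds of cells, with changes of -0.08 (SE 0.09, 95% interval -0.30 to 0.13) and 0.00 (SE 0.10, 95% interval -0.22 to 0.22). EIF2AK3 stood at 25.5, 25.5 and 22.8 CPM in shControl, 33.7, 30.7 and 31.3 in shACSL5, 26.5, 25.7 and 26.5 in shControl_PA and 31.8, 30.7 and 28.1 in shACSL5_PA. The knockdown libraries were the high ones, with or without palmitate. The changes with palmitate were 0.10 (SE 0.07, 95% interval -0.07 to 0.26) and -0.08 (SE 0.07, 95% interval -0.24 to 0.08). About 14.4% of the exon length of EIF2AK3 overlaps the antisense gene AC104134.1.

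SEC61A1, which forms the channel through which new proteins enter the ER, stood at 376, 383 and 401 CPM in shControl, 613, 597 and 607 in shACSL5, 486, 487 and 470 in shControl_PA and 566, 585 and 607 in shACSL5_PA. Untreated control libraries were lowest, treated control libraries next, and the knockdown groups highest and overlapping. SEC61A1 rose by 0.31 in control cells (SE 0.03, adjusted p = 8.08e-08), and its change in knockdown cells was -0.05 (SE 0.03, adjusted p = 0.299). The small subunit SEC61B stood at 0.11 and 0.00.

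In knockdown cells palmitate raised 18 of the 32 genes, while 21.9% of all tested genes were called and 12.1% were called higher. The median change was 0.15, against 0.01 over all tested genes. None fell by edgeR (9.78% of all tested genes did), DESeq2 or limma-voom, nor at an unadjusted p under 0.05. In 21 of 32 genes the groups did not overlap (35.5% of all tested genes). By role, 6 of 11 chaperones, 6 of 7 disulfide enzymes, 5 of 8 degradation genes and ATF6 rose, and neither translocon subunit was called. The responses in the 2 kinds of cells share no library. Of the 32 genes, 15 rose in both, 8 rose in control cells and were not called in knockdown cells, and 3 (DNAJC3, SEL1L and ATF6) the reverse. A call in 1 kind of cell only is no test of a difference between the responses. Of the 8, that difference was called in the main fit for CANX, DNAJB11, SDF2L1, SEC61A1 and XBP1. It was not called for CRELD2, DERL2 or DNAJB9, nor for any of the 3. The sign of the change was the same for 27 of the 32 (84.4%) and for 61.0% of all tested genes. Of the 2227 genes that rose in control cells, 657 (29.5%) rose in knockdown cells too. The marker sums of shACSL5 and shACSL5_PA overlapped, at 452 to 496 and 463 to 505 CPM for the luminal breast markers and 7362 to 7472 and 7301 to 7522 CPM for the MDA-MB-231 markers. Single MDA-MB-231 markers still differed by group mean: CAV1 (526 and 373 CPM), EGFR (793 and 723) and CD44 (374 and 325) were lower in shACSL5_PA. MSN (1319 and 1444), ITGB1 (989 and 1120) and PLAUR (94.3 and 118) were higher, and VIM (2623 and 2619) and AXL (702 and 695) were close.

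Of these calls, 18 of 23 in control cells and 12 of 18 in knockdown cells held in every alternative. The others depended on the scaling, the method or 1 library. With library sizes alone as scaling, 19 genes rose in control cells (CRELD2, DERL2, PDIA4 and EDEM1 lost the call), and 35.9% of all called genes were higher in place of 52.8%. In control cells CRELD2 lost the call without shControl replicate 1 (adjusted p = 0.0726) or shControl_PA replicate 3 (0.0973), and DERL2 without shControl replicate 1 (0.0583), shControl replicate 2 (0.0999), shControl_PA replicate 1 (0.0963) or shControl_PA replicate 3 (0.0618). In knockdown cells library sizes alone left 14 genes, as did fitting only the groups compared. There P4HB lost the call without shACSL5 replicate 2 (0.0508), SYVN1 without shACSL5 replicate 2 (0.0579) or shACSL5_PA replicate 3 (0.0611), and PDIA6 without shACSL5 replicate 1 (0.129) or shACSL5_PA replicate 3 (0.105). HYOU1 lost it without shACSL5 replicate 2 (0.127), shACSL5 replicate 3 (0.0510) or shACSL5_PA replicate 3 (0.106). DNAJC3 lost it without shACSL5 replicate 3 (0.190), shACSL5_PA replicate 1 (0.211) or shACSL5_PA replicate 2 (0.0897), and SEL1L without shACSL5 replicate 1 (0.0535), shACSL5 replicate 3 (0.202), shACSL5_PA replicate 1 (0.124) or shACSL5_PA replicate 2 (0.102). With DESeq2, DNAJC3 (0.0532) and SEL1L (0.0526) lost it too. Calls were gained by DERL1 in control cells without shControl replicate 3 (0.0242), and in knockdown cells by ERO1B and DERL2 in 3 alternatives each, with adjusted p from 0.0356 to 0.0403 and from 0.00388 to 0.0470.

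**Figure D4:**
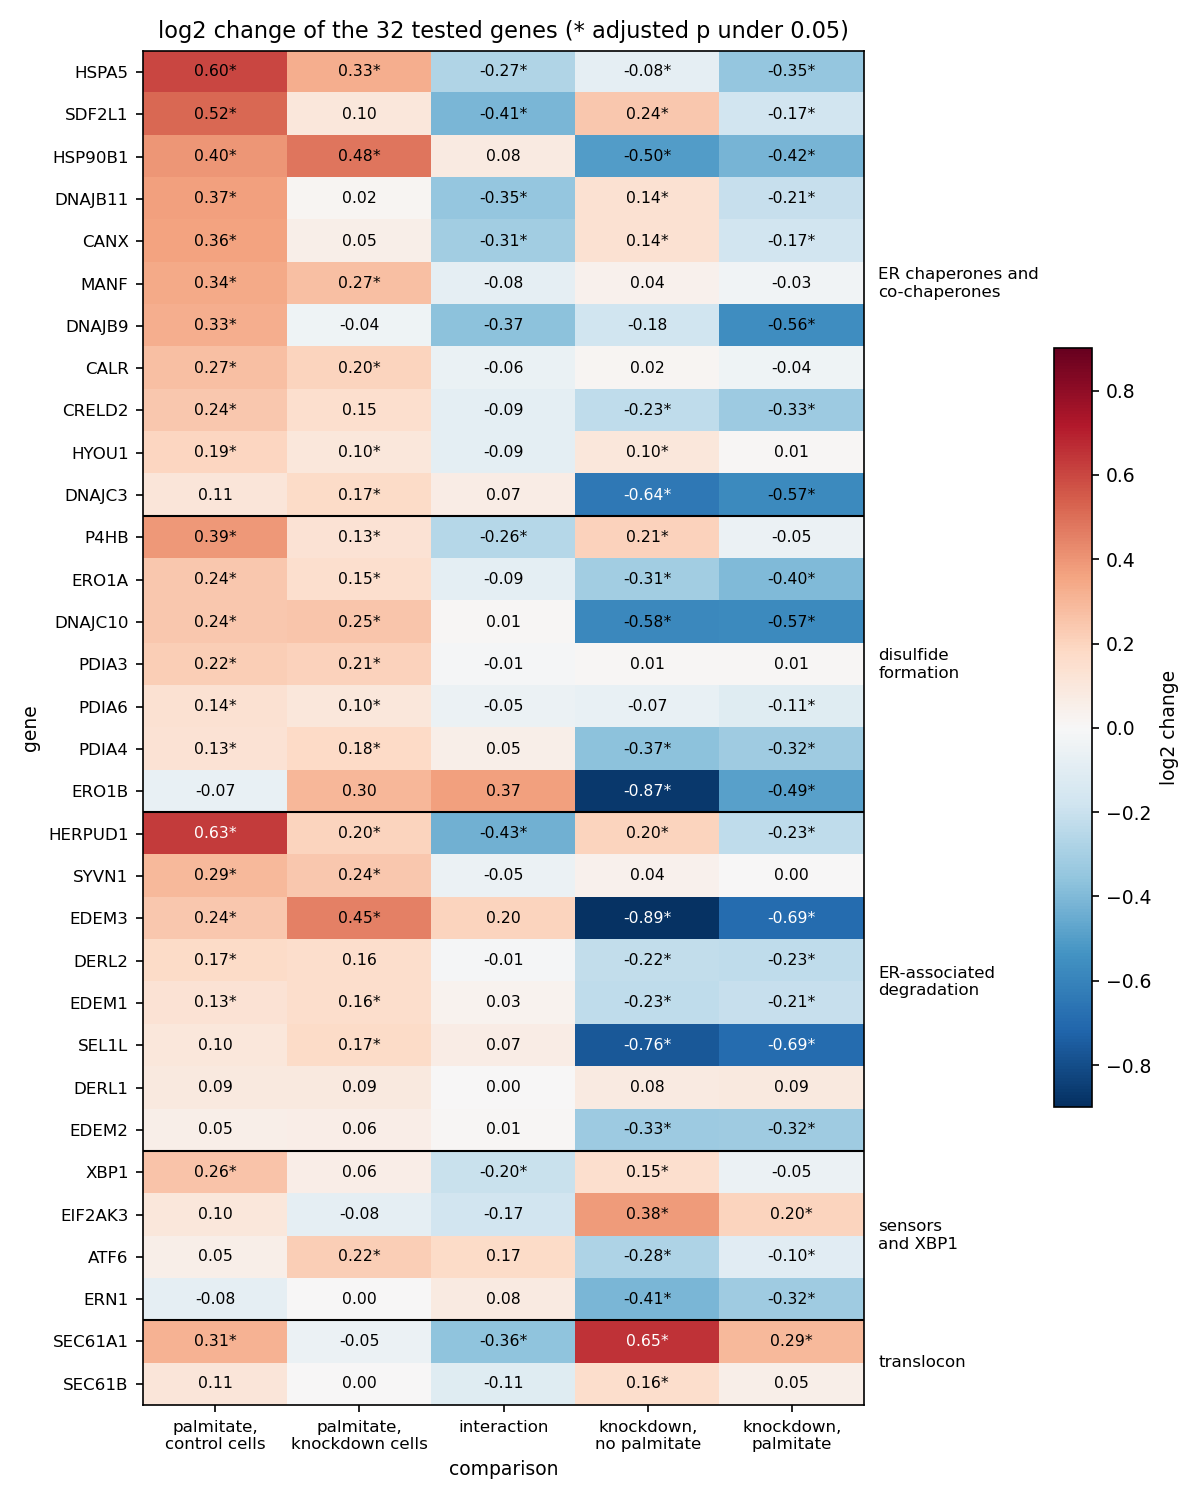
Log2 change of each of the 32 tested genes in the 5 comparisons, grouped by role and ordered within a role by the palmitate change in control cells, with an asterisk at an adjusted p under 0.05. The column of palmitate in control cells holds 23 starred values, all positive, and the interaction column 8, all negative.

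The interaction compares these responses directly, by subtracting the palmitate change of control cells from that of knockdown cells. It was called for 8 of 32 genes, all negative, so that the change with palmitate was smaller in the knockdown cells. Over all tested genes 14.5% were called, and 7.39% were called negative. The median over the set was -0.06 and over all tested genes 0.01. HERPUD1 had the largest difference (-0.43, SE 0.07, adjusted p = 0.000197), followed by SDF2L1 (-0.41, SE 0.10, adjusted p = 0.00861), SEC61A1 (-0.36, SE 0.04, adjusted p = 6.39e-06) and DNAJB11 (-0.35, SE 0.07, adjusted p = 0.00159). CANX (-0.31, SE 0.03, adjusted p = 3.94e-07), HSPA5 (-0.27, SE 0.03, adjusted p = 3.93e-06) and P4HB (-0.26, SE 0.05, adjusted p = 0.000549) were next. XBP1 (-0.20, SE 0.06, adjusted p = 0.0157) lost the call without shACSL5 replicate 1 (-0.17, adjusted p = 0.0620). The other 7 were called under all 19 alternatives run for this comparison.

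The knockdown without palmitate, which uses the same untreated libraries and is therefore not independent of the interaction, gave these genes values of 0.65 for SEC61A1, 0.24 for SDF2L1, 0.21 for P4HB, 0.20 for HERPUD1, 0.15 for XBP1, 0.14 for CANX, 0.14 for DNAJB11 and -0.08 for HSPA5. With library sizes alone as scaling, 59.9% of all genes called in the interaction were positive in place of 49.2%, and ATF6 became the 1 positive call of the set (0.20, adjusted p = 0.0251). By edgeR, DESeq2 and limma-voom in their planned settings no gene of the set was called positive (7.15% of all tested genes were, by edgeR), while 3 were positive at an unadjusted p under 0.05.

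For the other chaperones the difference between the responses was not called. HSP90B1 stood at 0.08 (95% interval -0.01 to 0.18), CALR at -0.06 (-0.14 to 0.01), MANF at -0.08 (-0.22 to 0.07) and HYOU1 at -0.09 (-0.20 to 0.02). DNAJB9 had a value as large as those called, with more spread (-0.37, SE 0.13, adjusted p = 0.0598), and passed in 6 of 19 alternatives (values of -0.46 to -0.27 over the 19). Positive values were highest for ERO1B (0.37, SE 0.15, adjusted p = 0.104), EDEM3 (0.20, SE 0.08, adjusted p = 0.112) and ATF6 (0.17, SE 0.06, adjusted p = 0.0533). ERO1B passed without shControl replicate 3 (0.47, adjusted p = 0.0404), EDEM3 without shACSL5_PA replicate 3 (0.26, adjusted p = 0.0364) and ATF6 without shControl replicate 3 (0.20, adjusted p = 0.0327).

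**Figure D5:**
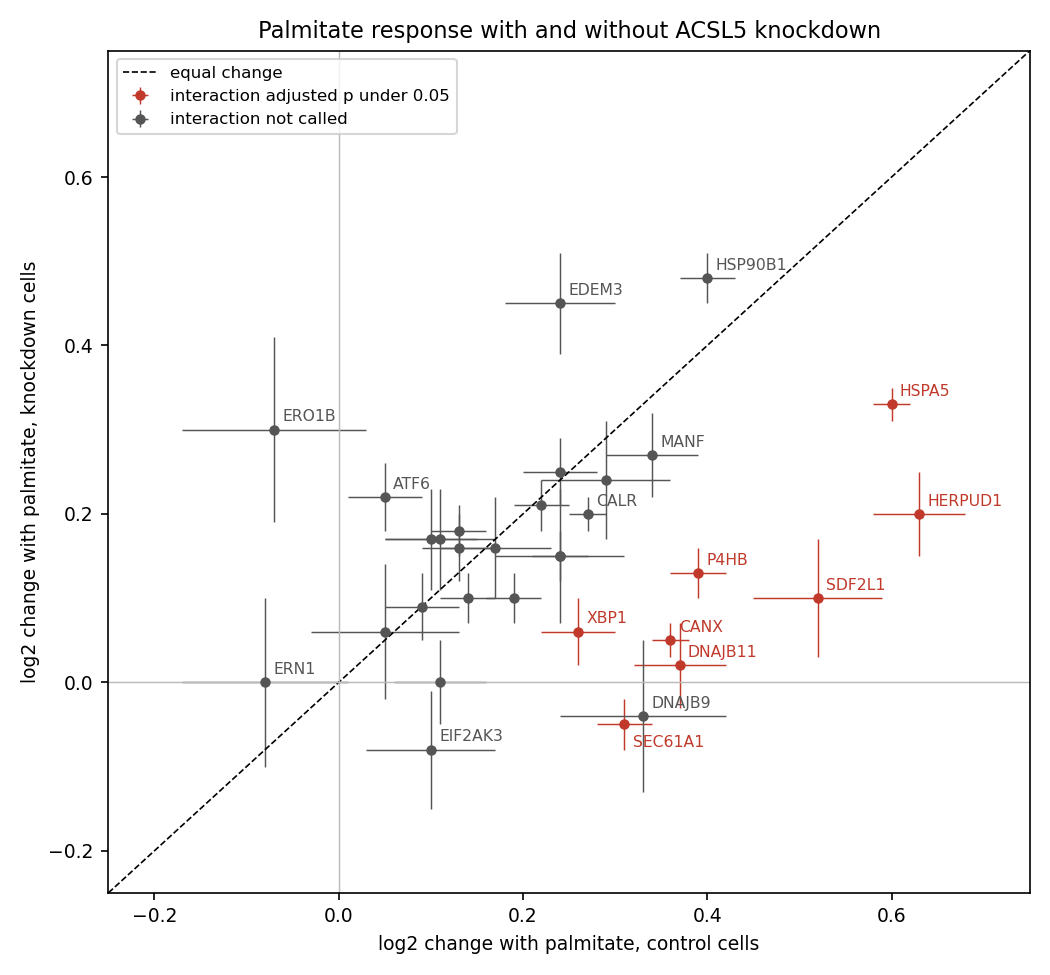
Log2 change with palmitate in control cells (horizontal) and in knockdown cells (vertical) for the 32 tested genes, with bars of 1 SE and a dashed line of equal change. The 8 genes with a called interaction (red) all lie below the line, from HERPUD1 (0.63 and 0.20) to XBP1 (0.26 and 0.06), while HSP90B1 (0.40 and 0.48) lies above it.

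Set against the promoter matches, the 11 genes with an ERSE or ERSE-II had a median palmitate change of 0.27 in control cells (range -0.07 to 0.63, 10 rose), and the 19 with a window and neither element a median of 0.17 (range -0.08 to 0.39, 12 rose). In knockdown cells the medians were 0.15 and 0.16, with 6 of 11 and 11 of 19 genes raised. The interaction was called negative for 5 of the 11 (CANX, HERPUD1, HSPA5, SDF2L1 and XBP1) and for 3 of the 19 (DNAJB11, P4HB and SEC61A1). ERO1B, which has an exact ERSE, was not called in control cells (-0.07). Over all tested genes 15.1% rose with palmitate in control cells, 12.1% rose in knockdown cells and 7.39% had a negative interaction. The genes with neither element include DNAJC3, SEL1L and SYVN1, which match an ERSE with 1 letter changed, and DNAJC10, which holds a UPRE core. These figures describe the set, and no test of the motif was made.

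Without palmitate the knockdown split the set: 10 of 32 genes rose and 15 fell. This comparison changed much of the transcriptome, with 62.3% of all tested genes called (29.7% higher and 32.6% lower), so the 25 calls of the set are to be read against that share. The median was -0.07, against -0.02 over all tested genes, and in 25 genes the groups did not overlap (66.1% of all tested genes). The genes that fell furthest were EDEM3 (to 0.540 of control), ERO1B (0.548), SEL1L (0.589), DNAJC3 (0.642), DNAJC10 (0.671) and HSP90B1 (0.707). The largest rises were those of SEC61A1 (1.57-fold) and EIF2AK3 (1.30-fold).

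By role, 5 of 8 degradation genes fell (EDEM3, SEL1L, EDEM2, EDEM1 and DERL2) and HERPUD1 rose. Of the disulfide enzymes, ERO1B, DNAJC10, PDIA4 and ERO1A fell and P4HB rose. The chaperones were evenly divided, with HSP90B1, DNAJC3, CRELD2 and HSPA5 lower and SDF2L1, CANX, DNAJB11 and HYOU1 higher. Of the sensors ERN1 and ATF6 fell and EIF2AK3 rose, and XBP1 and both translocon subunits rose.

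SEC61A1 changed by 0.65 (SE 0.03, adjusted p = 3.24e-14), HSP90B1 by -0.50 (SE 0.03, adjusted p = 1.67e-12), EDEM3 by -0.89 (SE 0.06, adjusted p = 1.18e-11), DNAJC10 by -0.58 (SE 0.04, adjusted p = 3.80e-11) and SEL1L by -0.76 (SE 0.06, adjusted p = 4.09e-11). All 3 knockdown libraries lay on one side of all 3 control libraries for each of these. Smaller changes passed as well: HSPA5 fell by 5.32% (log2 -0.08, SE 0.02, adjusted p = 0.00359), and HERPUD1 (0.20), SDF2L1 (0.24), XBP1 (0.15), CANX (0.14) and P4HB (0.21) were higher. ERN1 fell by 0.41 on the log2 scale (SE 0.09, adjusted p = 0.000665) and ATF6 by 0.28 (SE 0.04, adjusted p = 5.30e-06), and EIF2AK3 rose by 0.38 (SE 0.07, adjusted p = 7.38e-05). DNAJB9 stood at -0.18 (SE 0.09, adjusted p = 0.0941) and was not called.

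Some weak calls rested on 1 library or on the method. DNAJB11 lost the call without shControl replicate 3 (adjusted p = 0.104) or shACSL5 replicate 2 (0.0889), HYOU1 without shControl replicate 1 (0.0558) or shACSL5 replicate 1 (0.0646), SDF2L1 without shControl replicate 1 (0.0571) and CRELD2 without shControl replicate 3 (0.0565) or with DESeq2 (0.0503). DNAJB11 also lost it with library sizes alone (0.0559). DNAJB9 passed without shControl replicate 2 (-0.28, adjusted p = 0.0121). PDIA6 passed with library sizes alone (-0.09, adjusted p = 0.0107), with a replicate block (-0.07, 0.0427) and without shControl replicate 1 (-0.11, 0.00567). DERL1 passed in 5 alternatives (0.10 to 0.13): RLE scaling (0.0302), the stricter filter (0.0259), DESeq2 (0.0369), only the groups compared (0.0363) and without shControl replicate 3 (0.0117). Marker sums moved with the knockdown as well. The 8 MDA-MB-231 markers summed to 9157 to 9377 CPM in shControl and 7362 to 7472 CPM in shACSL5, and 8 luminal breast markers, led by KRT8 and KRT18, to 648 to 690 and 452 to 496 CPM. Among the MDA-MB-231 markers VIM (3952 to 2623 CPM), MSN (1748 to 1319) and ITGB1 (1264 to 989) were lower by group mean. EGFR (661 to 793), AXL (674 to 702) and PLAUR (90.4 to 94.3) were higher, and CD44 (374 and 374) and CAV1 (528 and 526) hardly moved. The part of these markers in the result was not tested.

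Under palmitate most of the set was lower with the knockdown: 21 of 32 genes were lower in shACSL5_PA than in shControl_PA and 2 were higher, SEC61A1 and EIF2AK3. Over all tested genes 50.5% were called, 26.1% lower and 24.4% higher. The median was -0.21, against 0.00 over all tested genes, and in 25 of 32 genes the groups did not overlap (56.9% of all tested genes). Of the chaperones 8 of 11 were lower and none was higher by edgeR, DESeq2 or limma-voom, or at an unadjusted p under 0.05.

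HSPA5 fell by 21.5% (log2 -0.35, SE 0.02, adjusted p = 1.11e-11), HSP90B1 fell by 25.1% (-0.42, SE 0.03, adjusted p = 9.43e-11), DNAJC10 fell by 32.5% (-0.57, SE 0.04, adjusted p = 1.04e-10) and SEL1L fell by 38.2% (-0.69, SE 0.05, adjusted p = 3.85e-10). EDEM3 (-0.69, SE 0.06), DNAJC3 (-0.57, SE 0.06) and DNAJB9 (-0.56, SE 0.09, adjusted p = 2.43e-05) fell by similar amounts, and HERPUD1 fell by 0.23 on the log2 scale (SE 0.05, adjusted p = 0.000289). The groups did not overlap for any of these 8 genes. ERN1 was lower (-0.32, SE 0.09, adjusted p = 0.00620), and EIF2AK3 (0.20, SE 0.07, adjusted p = 0.0200) and SEC61A1 (0.29, SE 0.03, adjusted p = 5.78e-08) were higher. XBP1 stood at -0.05 (SE 0.04, 95% interval -0.14 to 0.04), CALR at -0.04 (-0.10 to 0.01), MANF at -0.03 (-0.14 to 0.07) and P4HB at -0.05 (-0.12 to 0.03).

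The calls of SDF2L1 (-0.17, adjusted p = 0.0484) and ATF6 (-0.10, adjusted p = 0.0419) were marginal. SDF2L1 lost its call in 14 of 20 alternatives, with the highest adjusted p of 0.287 without shControl_PA replicate 1, and ATF6 in 10, with 0.148 without that library. EIF2AK3 lost it without shControl_PA replicate 2 (0.0558), shACSL5_PA replicate 1 (0.0988) or shACSL5_PA replicate 2 (0.0595). DERL1 passed with the stricter filter (0.10, adjusted p = 0.0366) and with only the groups compared (0.10, 0.0284). This comparison shares its treated control libraries with the palmitate comparison in control cells, so the values of both are given side by side and not counted as separate support. HSPA5 stood at 0.60 and -0.35, HERPUD1 at 0.63 and -0.23, CANX at 0.36 and -0.17, DNAJB9 at 0.33 and -0.56, and CALR at 0.27 and -0.04. The summed luminal markers were 568 to 588 CPM in shControl_PA and 463 to 505 CPM in shACSL5_PA, and the summed MDA-MB-231 markers 8620 to 8774 and 7301 to 7522 CPM. Of the latter VIM (3557 to 2619 CPM), MSN (1721 to 1444), ITGB1 (1291 to 1120), CAV1 (418 to 373) and CD44 (366 to 325) were lower by group mean. AXL (592 to 695), EGFR (650 to 723) and PLAUR (116 to 118) were higher. The part of these markers in the result was not tested.

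Lists of other ER genes are described by counts, to be read against the 28.7% of all tested genes called with palmitate in control cells (15.1% higher and 13.5% lower). The 1 or 2 genes named from a list are those with the smallest p among its called genes, which need not have the largest change. Of 23 tested genes of the translocon, the signal recognition particle and signal peptidase 18 rose (median 0.19), with SSR2 at 0.27 and SSR3 at 0.24. Of 17 genes of oligosaccharyltransferase and glycan trimming 12 rose (median 0.19), among them PRKCSH (0.37) and STT3A (0.25). Of 15 outputs of PERK and ATF4 9 rose (median 0.39), among them PPP1R15A (0.92), which encodes a regulatory subunit of the phosphatase that reverses PERK's signal, and DDIT4 (0.64). The largest called rises of that list were those of DDIT3 (1.07), SESN2 (0.95) and ATF3 (0.93), named here for their size. None of these 3 lists had a gene lower by edgeR, DESeq2 or limma-voom or at an unadjusted p under 0.05. Smaller shares rose among 15 further thiol oxidoreductases (8, with PRDX4 at 0.28 and TXNDC5 at 0.19), 23 other folding factors (8, with the prolyl isomerase gene PPIB at 0.35 and the collagen chaperone gene SERPINH1 at 0.44) and 25 other degradation genes (7 rose and 2 fell, with AUP1 at 0.42 and SELENOS at 0.34). Of 22 genes of COPII vesicles 8 rose and 2 fell (TMED2 at 0.31, LMAN1 at 0.25), and of 9 ER-phagy receptors 2 rose (TEX264 at 0.31, SEC62 at 0.14). Of 9 genes of the ER calcium store 3 rose and 2 fell (TMCO1 at 0.25, ATP2A2 at 0.11), and of 11 other regulators 3 rose and 2 fell (CREB3L1 at -1.21, CREB3L2 at 0.23). The shares called were 78.3%, 70.6% and 60.0% for the first 3 lists and from 22.2% (ER-phagy receptors) to 55.6% (calcium store) for the other 7, with the folding factors at 34.8% and the degradation genes at 36.0%. The medians of these 7 lists ran from -0.02 to 0.14, against 0.00 over all tested genes.

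In knockdown cells, where 21.9% of all tested genes were called (12.1% higher and 9.78% lower), the same lists gave 8 of 23 translocon and targeting genes higher (SPCS3 at 0.26, SEC61G at 0.18), 7 of 17 glycosylation genes (MAGT1 at 0.41, RPN2 at 0.15), and 9 of 15 PERK and ATF4 outputs with 1 lower (DDIT4 at 0.98, ASNS at 0.41). Of the thiol oxidoreductases 4 of 15 rose (ERP44 at 0.31, TXNDC12 at 0.22), and of the folding factors 6 of 23 rose and 4 fell (DNAJC1 at 0.30, FKBP7 at -0.46). The degradation genes had 7 of 25 higher and 1 lower (OS9 at 0.23, TMEM129 at -0.49), the COPII genes 3 of 22 higher and 5 lower (KDELR3 at -0.42, MCFD2 at 0.21), the ER-phagy receptors 1 of 9 higher (CCPG1 at 0.32), the calcium store 3 of 9 higher (ITPR3 at 0.22, TMCO1 at 0.19) and the regulators 2 of 11 higher (TMBIM6 at 0.09, CREB3L2 at 0.17). The medians of the 10 lists ran from 0.02 to 0.37, against 0.01 over all tested genes. The interaction, called for 14.5% of all tested genes (7.39% negative and 7.15% positive), was negative for 6 of 23 translocon and targeting genes (SRPRB at -0.40, SSR3 at -0.25), 4 of 17 glycosylation genes with 2 positive (PRKCSH at -0.26, DAD1 at -0.29), 6 of 23 folding factors with 1 positive (PPIB at -0.26, CNPY2 at -0.61) and 5 of 22 COPII genes with 1 positive (TMED2 at -0.26, SEC31A at -0.23). Among the PERK and ATF4 outputs 3 were negative and 3 positive (PPP1R15A at -0.64, VLDLR at 0.46). The thiol oxidoreductases had 3 negative and 1 positive (TXNDC5 at -0.25, GPX8 at -0.26), the degradation genes 1 of each (AUP1 at -0.35, FAM8A1 at 0.45), the ER-phagy receptors 1 negative (TEX264 at -0.36), and the regulators 1 positive (CREB3L1 at 0.82). Of the 9 calcium store genes none was called by edgeR, DESeq2 or limma-voom, and 3 were positive at an unadjusted p under 0.05.

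With the knockdown alone each of these lists had genes called in both directions, as the set itself did. Over all tested genes 62.3% were called (29.7% higher and 32.6% lower), and the lists had from 66.7% (calcium store) to 88.9% (ER-phagy receptors) called. Translocon and targeting genes had 10 of 23 higher and 7 lower, among the former both subunits of the signal recognition particle receptor (SRPRA at 0.80, SRPRB at 0.86). Glycosylation genes had 10 of 17 higher and 4 lower (MAGT1 at -1.56, PRKCSH at 0.34), folding factors 12 of 23 higher and 8 lower (SERPINH1 at 1.18, PPIB at 0.45), and degradation genes 10 of 25 higher and 10 lower (UBE2J1 at -0.68, AUP1 at 0.55). Of the thiol oxidoreductases 7 of 15 were higher and 5 lower (TXNDC5 at 0.64, QSOX2 at 0.60), of the COPII genes 10 of 22 higher and 7 lower (SEC23A at -0.59, MCFD2 at -0.52), and of the PERK and ATF4 outputs 5 of 15 higher and 8 lower (ASNS at -1.10, PPP1R15A at 1.06). The ER-phagy receptors had 3 of 9 higher and 5 lower (CCPG1 at -0.88, TEX264 at 0.44), the calcium store 2 of 9 higher and 4 lower (STIM1 at -0.42, ATP2A2 at 0.13), and the regulators 2 of 11 higher and 6 lower (CREB3L1 at -2.14, TMBIM6 at 0.20). The medians ran from -0.23 to 0.17, against -0.02 over all tested genes.

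Under palmitate, where 50.5% of all tested genes were called (24.4% higher and 26.1% lower), the knockdown left 10 of 23 translocon and targeting genes higher and 9 lower (SRPRA at 0.53, SSR1 at -0.48), 6 of 17 glycosylation genes higher and 2 lower (MAGT1 at -1.32, UGGT1 at -0.23), and 10 of 23 folding factors higher and 6 lower (SERPINH1 at 0.90, NUCB2 at -1.04). The degradation genes had 11 of 25 higher and 10 lower (UBE2J1 at -0.69, VCP at 0.25), the thiol oxidoreductases 5 of 15 higher and 4 lower (TXNDC5 at 0.39, QSOX2 at 0.49), and the PERK and ATF4 outputs 2 of 15 higher and 8 lower (ASNS at -0.90, DDIT4 at -1.02). The COPII genes had 7 of 22 higher and 8 lower (SEC23A at -0.52, TMED10 at -0.49), the ER-phagy receptors 2 of 9 higher and 4 lower (CCPG1 at -0.68, SEC62 at -0.26), the calcium store 2 of 9 higher (TMCO1 at 0.12, ATP2A2 at 0.07) and the regulators 2 of 11 higher and 4 lower (ATF6B at -0.44, TMBIM6 at 0.19). The medians of these 10 lists ran from -0.19 to 0.11, and that of the 32 genes of the set was -0.21.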

How the data were processed

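Polyadenylated RNA of LM3 cells was sequenced in 12 libraries, 3 in each of 4 groups taken from the sample labels. The table the authors deposited holds raw counts of reads for each gene, with no normalization. The tools and build named in the submitters' processing notes are fastp (0.22.0), HISAT2 (2.1.0), featureCounts (no version) and GRCh38. The sources used here give neither the annotation release nor the strand setting, and without the latter, reads from antisense overlaps cannot be assigned. No column was left unmapped, and 51928 of 57730 identifiers matched a current symbol.

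Genes kept by filterByExpr (14706) were scaled with TMM factors, and edgeR 4.0.16 (R 4.3.3) fitted 1 quasi-likelihood model over the 12 libraries, with Benjamini-Hochberg adjustment over all tested genes. Calls were made at adjusted p under 0.05. Where no other method is named, an adjusted p is edgeR's. Changes are log2 ratios. Their standard error (SE) is the absolute change divided by the square root of the F statistic, an approximation, and 95% intervals are the change plus or minus that SE times the t quantile at 8 degrees of freedom. Levels are TMM-scaled CPM. The alternatives were RLE scaling, library sizes alone, no filter, a stricter filter (5 CPM in 3 libraries), DESeq2 1.42.0, limma-voom 3.58.1, only the groups compared, a replicate block and leaving out each library. The fit was also run on simulated data as a check of the code, and no result given here rests on that run. Exon lengths, overlaps and shared 50-base windows are from GENCODE 29.

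The members, the gene lists, the tests and the rule for naming genes were chosen with earlier results of these data known. All 33 members are named. CPM in every library is given for HSPA5, HSP90B1, HERPUD1, SDF2L1, DNAJB9, XBP1, ERN1, ATF6 and EIF2AK3 and for the 4 called members with the smallest p in each comparison. From each list of other ER genes up to 2 called genes with the smallest p are named per comparison. No pairing by replicate number was visible, and the main model used none.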

Additional observations from a re-analysis of the deposited data

Results flagged for a closer look

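The palmitate change in knockdown cells differed from that in control cells, by the interaction term of the edgeR model at an adjusted p under 0.05, for 8 of the 32 tested genes, and these are listed because that test of the difference passed. HERPUD1 differed by -0.43 on the log2 scale (adjusted p = 0.000197), SDF2L1 by -0.41 (0.00861), SEC61A1 by -0.36 (6.39e-06) and DNAJB11 by -0.35 (0.00159). CANX differed by -0.31 (3.94e-07), HSPA5 by -0.27 (3.93e-06), P4HB by -0.26 (0.000549) and XBP1 by -0.20 (0.0157). Every one had a smaller change in knockdown cells, and 14.5% of all tested genes passed the same test.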

How the results depend on the processing

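No count of calls moved by more than 1.5 times under the 20 alternatives (19 for the interaction). The number of members called ran from 24 to 26 with the knockdown, 19 to 24 with palmitate in control cells, 14 to 20 with palmitate in knockdown cells, 20 to 23 with the knockdown under palmitate, and 7 to 10 for the interaction. Of the members called, 21 of 25, 18 of 23, 12 of 18, 20 of 23 and 7 of 8 were called in every alternative. Signs turned for values that were called in neither fit: PDIA3 with the knockdown (-0.01) and in the interaction (0.02) and DERL2 in the interaction (0.02), with library sizes alone, and EDEM2 in the interaction (-0.01 with RLE scaling and -0.01 with DESeq2). Leaving out 1 library gave ranges across 0 for DNAJB9 with palmitate in knockdown cells (-0.10 to 0.01), HYOU1 (-0.01 to 0.02) and PDIA3 (-0.01 to 0.02) with the knockdown under palmitate, and, in the interaction, PDIA3 (-0.03 to 0.01), DNAJC10 (-0.04 to 0.04), SYVN1 (-0.10 to 0.03), DERL2 (-0.06 to 0.06), EDEM2 (-0.04 to 0.06) and ERN1 (-0.02 to 0.19). Values that stood at 0.00 took either sign over the alternatives: ERN1 (-0.10 to 0.11) and SEC61B (-0.03 to 0.04) with palmitate in knockdown cells, SYVN1 with the knockdown under palmitate (-0.06 to 0.07) and DERL1 in the interaction (-0.04 to 0.03). The cause was not tested. No scaling moved the median of all genes by more than 0.05.

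Libraries with the same replicate number did not deviate together (correlations of -0.04 to 0.08 between groups), so no pairing was visible. Whether libraries of the same number were handled together is not stated. With a replicate block 26, 23, 19, 22 and 8 members were called in the 5 comparisons, in the order above. The depth leaves the low genes least certain: ERO1B had 182 to 404 counts in a library and EDEM2 274 to 417.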
